A study of Mus musculus with 6 samples.

Results

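Chemokines are small secreted proteins that attract leukocytes, and the 10 chemokine genes Cxcl1, Cxcl2, Cxcl5, Cxcl10, Cxcl16, Cx3cl1, Ccl2, Ccl5, Ccl7 and Ccl20 were followed here by symbol among the 41214 genes of the count tables. All 10 were found, each under 1 gene ID. The set holds CXC and CC chemokines and also Cx3cl1, which encodes the CX3C chemokine fractalkine. RNA came from NMuMG-derived mammary tumour explant cells expressing the receptor tyrosine kinase ErbB2, NMuMG being an epithelial line from normal mouse mammary gland. In 3 libraries the cells carried a short hairpin against CdGAP (shCdGAP, genotype label CdGAP KD), and in 3 they carried a control hairpin (shCTL, genotype label WT). CdGAP is the product of Arhgap31, a GTPase-activating protein for Cdc42 and Rac1, and the title of the study concerns its action with Zeb2 on E-cadherin transcription in breast cancer. The labels do not state how the hairpins were delivered, whether either population is a clone, or whether replicates were separate cultures, so each p-value rests on library-to-library spread that may be purely technical.

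As background, chemokines are recognised by G protein-coupled receptors on leukocytes, and their classes are named for the spacing of the first cysteines. Neutrophils respond to CXC chemokines through CXCR2, monocytes to CCL2 and CCL7 through CCR2 and to CX3CL1 through CX3CR1, and T cells to CXCL10 through CXCR3, to CXCL16 through CXCR6 and to CCL20 through CCR6. Many chemokine genes are switched on by NF-kappaB after cytokine signals, while Cxcl10 and Ccl5 also answer to interferon. Epithelial and tumour cells of the mammary gland can secrete several of them.

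Of the 7 members with enough counts to be tested, 4 rose in shCdGAP (Cxcl5, Ccl2, Ccl7 and Ccl20), 1 fell (Cxcl10) and 2 were not called (Cxcl1 and Cx3cl1). A call means an adjusted p under 0.05 in edgeR's quasi-likelihood test over all genes, and among all 13483 tested genes 10.4% rose and 11.4% fell. The 4 risen members were each at least 2-fold higher, and 5.16% of tested genes were both called and at least 2-fold higher. The groups did not overlap for the 5 called members, as for 44.1% of tested genes. The median log2 fold change, shCdGAP over shCTL, was 2.09 over the 7 tested members and 0.01 over all tested genes. The members and the lists below were chosen with earlier results of these data known. Their shares and medians beside those of all genes are therefore descriptions and not an independent test. Cxcl2, Cxcl16 and Ccl5 had too few counts for the test. By the cells they attract, 1 of 2 tested neutrophil attractants rose, 2 of 3 monocyte attractants rose, and of 2 tested T cell attractants 1 rose and 1 fell. Without shCdGAP replicate 1, which stood apart from its replicates, 5 of 8 tested members rose and 2 fell, and of all genes tested that way 19.9% rose and 21.9% fell. Without shCTL replicate 1 or without shCTL replicate 3, 3 members rose (Ccl2, Ccl7 and Ccl20) and 0 fell (edgeR). Of all genes tested, 5.74% rose and 7.65% fell without shCTL replicate 1, and 4.13% rose and 6.55% fell without shCTL replicate 3.

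The start regions of 5 members were held in the RefSeq promoter table (GRCm38.p6), namely Cxcl1, Cxcl2, Cxcl10, Cx3cl1 and Ccl20. Of these, 4 are printed because they set a gene with counts beside a near-silent neighbour and a fallen gene beside the most risen one. Each runs 5′ to 3′ on the strand of its gene, from 250 bases before the annotated start to 50 after it, at chr5:90890995-90891294 (plus strand) for Cxcl1, chr5:90903649-90903948 (plus) for Cxcl2, chr5:92348840-92349139 (minus) for Cxcl10 and chr1:83116516-83116815 (plus) for Ccl20. Capitals mark matches to the motifs searched.
Cxcl1: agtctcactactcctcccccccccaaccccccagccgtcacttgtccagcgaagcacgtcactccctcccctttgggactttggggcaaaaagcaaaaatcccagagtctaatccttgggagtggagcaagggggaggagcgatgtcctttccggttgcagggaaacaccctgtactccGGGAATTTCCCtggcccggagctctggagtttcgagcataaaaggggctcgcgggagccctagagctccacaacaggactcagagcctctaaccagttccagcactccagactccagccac
Cxcl2: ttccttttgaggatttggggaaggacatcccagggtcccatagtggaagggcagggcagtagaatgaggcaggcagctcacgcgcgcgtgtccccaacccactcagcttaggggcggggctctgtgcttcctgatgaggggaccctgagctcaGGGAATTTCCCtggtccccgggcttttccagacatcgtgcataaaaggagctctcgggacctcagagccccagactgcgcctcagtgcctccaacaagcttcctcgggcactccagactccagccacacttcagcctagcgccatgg
Cxcl10: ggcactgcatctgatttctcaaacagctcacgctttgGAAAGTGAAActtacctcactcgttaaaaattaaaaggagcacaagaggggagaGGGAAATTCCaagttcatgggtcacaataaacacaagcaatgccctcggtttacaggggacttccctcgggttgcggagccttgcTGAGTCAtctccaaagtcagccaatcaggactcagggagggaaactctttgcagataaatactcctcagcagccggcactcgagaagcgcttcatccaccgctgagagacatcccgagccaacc
Ccl20: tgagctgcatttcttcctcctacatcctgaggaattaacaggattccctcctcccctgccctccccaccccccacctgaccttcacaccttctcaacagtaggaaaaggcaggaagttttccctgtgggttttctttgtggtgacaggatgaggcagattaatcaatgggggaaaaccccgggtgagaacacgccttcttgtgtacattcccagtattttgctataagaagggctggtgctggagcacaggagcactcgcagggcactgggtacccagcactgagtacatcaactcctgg

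The motifs, searched on both strands, were GGGA and TTCC with any 2 bases between them (NF-kappaB type), GAAA and GAAA with any 2 bases between them (interferon type), and TGANTCA (AP-1 type). They occurred in 1.47%, 3.44% and 7.81% of the 32851 RefSeq promoters of the same length. The Cxcl1 promoter held GGGAATTTCC starting 71 bases before the start site, and the Cxcl2 promoter held the same letters 97 bases before it. In both genes a match on the other strand, GGAATTTCCC, overlapped the first by all but 1 of its bases. Cxcl10 held 1 match to each motif, GAAAGTGAAA at 213, GGGAAATTCC at 159 and TGAGTCA at 74 bases before the start, and these did not overlap. The windows of Ccl20 and Cx3cl1 held no match to these exact patterns. Looser forms of the motifs were not searched, so a window without a match may still hold such a site. A match is a description of the letters and not evidence of binding.

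Arhgap31, the gene the hairpin targets, had 1.70, 9.16 and 8.21 CPM in shCdGAP replicates 1 to 3, against 13.2, 14.4 and 15.1 CPM in shCTL (log2 fold change −1.16 ± 0.55 SE, adjusted p = 0.19, edgeR), where CPM is the count per 1000000 scaled counts. The groups did not overlap, and the gene passed without shCdGAP replicate 1 (−0.71, adjusted p = 0.00407). Libraries held 19176540 to 26824249 counts, so the floor of 3 counts that a 0 leaves possible lay between 0.109 and 0.155 CPM by library (counting error only, as for all count intervals given). On the first principal component, with 72% of the variance, the groups were apart. The next, with 21.7%, set shCdGAP replicate 1 apart from replicates 2 and 3. The epithelial keratin genes Krt8 and Krt18 had 2594 to 5372 CPM in shCdGAP and 2496 to 4104 CPM in shCTL.

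**Figure D1:**
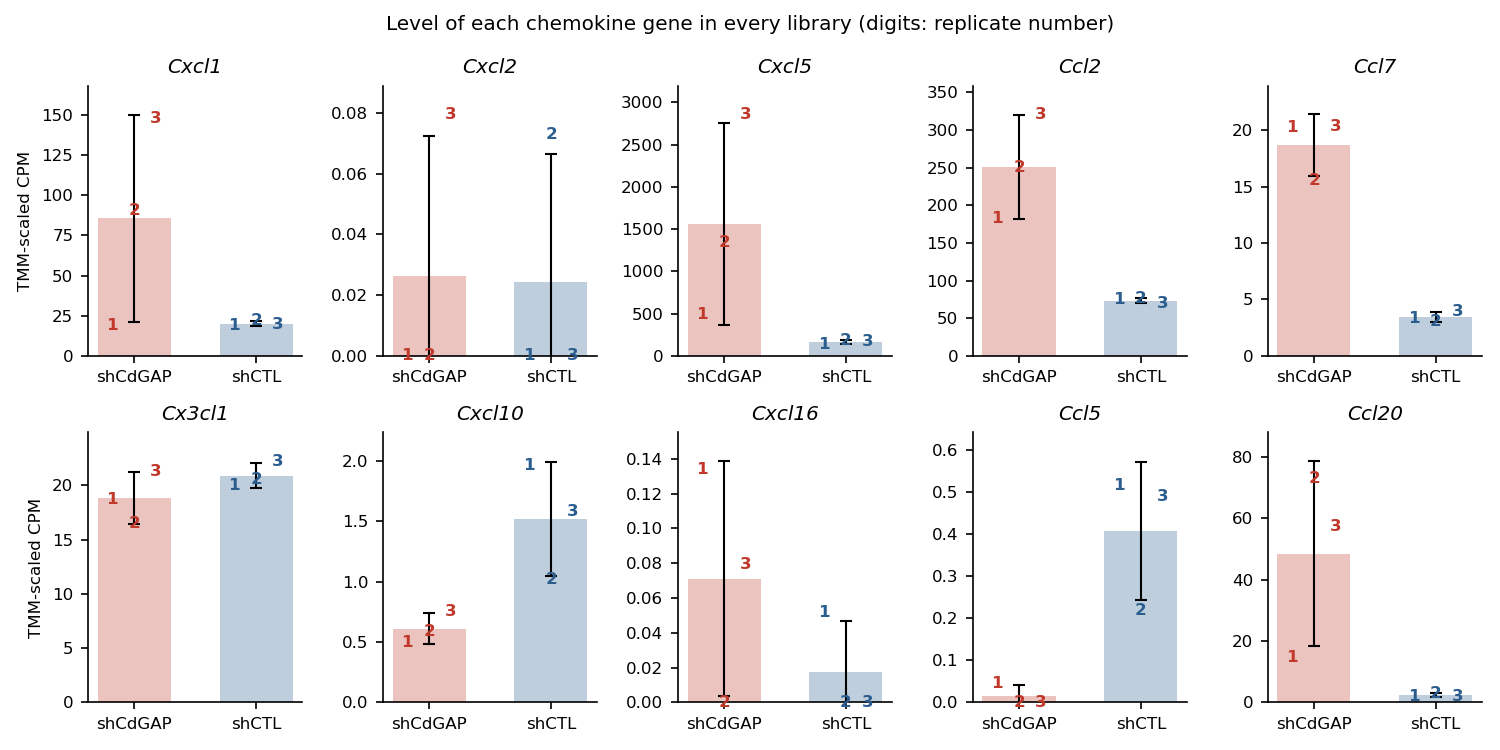
Levels of the 10 chemokine genes in TMM-scaled CPM (vertical axes from 0, a scale for each gene). Digits are replicate numbers, bars the group mean and black lines 1 SD, with shCdGAP at left. Cxcl5, Ccl2, Ccl7 and Ccl20 were higher in every shCdGAP library than in any shCTL library, and Cxcl10 and Ccl5 were lower.

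Among neutrophil attractants, Cxcl5 was the most abundant member and rose, Cxcl1 was higher in 2 of 3 shCdGAP libraries, and Cxcl2 was close to silent. Cxcl5, which encodes a CXCR2 ligand made by epithelial cells, had 495.5, 1346.0 and 2850.9 CPM in shCdGAP replicates 1 to 3, against 135.3, 186.5 and 174.6 CPM in shCTL. Every shCdGAP library lay above every shCTL library, and shCdGAP replicate 3 was the highest. Its mean was 1564 ± 1193 CPM in shCdGAP and 165.5 ± 26.8 CPM in shCTL (SD, n = 3 each), a ratio of 9.45. The log2 fold change was 3.24 ± 0.615 (SE, adjusted p = 0.013, edgeR). The call was lost without shCTL replicate 1, 2 or 3 (adjusted p 0.0579 to 0.069, edgeR), and the log2 fold change was 2.48 without shCdGAP replicate 3 (adjusted p = 0.0165).

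Cxcl5 counts made up 0.0479%, 0.134% and 0.278% of all counts in shCdGAP replicates 1 to 3, and 0.0137%, 0.0191% and 0.0179% in shCTL. The exact 95% interval in shCdGAP replicate 3 was 0.276% to 0.28%, so counting error was small beside the spread between replicates. Within the summed CPM of the 10 members, Cxcl5 took 66%, 75.1% and 83.4% in shCdGAP and 52.7%, 59.8% and 59.4% in shCTL. The other 9 members summed to 255.4, 446.7 and 567.7 CPM in shCdGAP, against 121.6, 125.5 and 119.5 CPM in shCTL. Their sum was thus also higher in each shCdGAP library.

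Cxcl1, which encodes the CXCR2 ligand KC, had 18.9, 90.4 and 147.6 CPM in shCdGAP, against 18.9, 21.8 and 19.6 CPM in shCTL. The groups overlapped because shCdGAP replicate 1 lay at the level of the shCTL libraries while replicates 2 and 3 lay above all of them. Over all 6 libraries the log2 fold change was 2.09 ± 0.659 and did not pass (adjusted p = 0.0691, edgeR). It passed without shCdGAP replicate 1 (2.58, adjusted p = 4.41e-05), with no filter on low counts (adjusted p = 0.0483) and in DESeq2 (adjusted p = 0.00396). It was 1.44 without shCdGAP replicate 3 (adjusted p = 0.154). Cxcl2, which encodes the related ligand MIP-2, had 0, 0 and 2 counts in shCdGAP and 0, 2 and 0 counts in shCTL. These levels lie at or below what 3 counts would give, so no difference was detectable. Of the 50-base stretches in Cxcl2 transcripts, 5.84% also occur in Cxcl3, and 0.693% of those in Cxcl5 occur in other genes. Cxcl1 shared none.

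Among the monocyte attractants of the set, the CCR2 ligand genes Ccl2 and Ccl7 rose and the fractalkine gene was not called. Ccl2, which encodes MCP-1, had 182.1, 250.6 and 320.2 CPM in shCdGAP, against 75.0, 75.8 and 69.7 CPM in shCTL. The shCTL libraries were close together and every shCdGAP library lay above them. The mean was 250.9 ± 69.0 CPM in shCdGAP and 73.5 ± 3.31 CPM in shCTL (SD, n = 3 each), and the log2 fold change was 1.77 ± 0.21 (adjusted p = 0.00236, edgeR). Ccl7, which encodes MCP-3, had 20.2, 15.5 and 20.3 CPM in shCdGAP, against 3.35, 3.02 and 3.95 CPM in shCTL. Here shCdGAP replicate 1 was level with replicate 3. The means were 18.6 ± 2.75 CPM in shCdGAP and 3.44 ± 0.471 CPM in shCTL (SD, n = 3 each), with a log2 fold change of 2.44 ± 0.195 (adjusted p = 0.000629). Ccl2 and Ccl7 were called in all 14 alternative settings.

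Cx3cl1, which encodes a chemokine tethered to the cell membrane, had 18.7, 16.5 and 21.3 CPM in shCdGAP, against 20.0, 20.5 and 22.2 CPM in shCTL. The groups overlapped. The log2 fold change was −0.15 ± 0.143 (adjusted p = 0.519, edgeR), and an interval of 1.96 SE on either side ran from −0.43 to 0.13. Cx3cl1 was called in none of the 14 alternatives. Both proteases known to shed CX3CL1 and CXCL16 were measured. Adam10 had 213 ± 24.9 CPM in shCdGAP and 197 ± 8.14 CPM in shCTL (adjusted p = 0.547, edgeR), and Adam17 had a log2 fold change of −0.13 (adjusted p = 0.638).

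Among T cell attractants, Ccl20 had the largest rise of the set, Cxcl10 fell, and Ccl5 and Cxcl16 were scarce. Ccl20, which encodes the CCR6 ligand, had 14.8, 73.0 and 57.5 CPM in shCdGAP, against 1.91, 3.02 and 1.96 CPM in shCTL. The lowest shCdGAP library, replicate 1, was still above the highest shCTL library. Its log2 fold change was 4.39 ± 0.635 (adjusted p = 0.00489, edgeR), the ratio of means was 21.1, and 85 of all tested genes had a larger log2 fold change. The call held in all 14 alternatives, with adjusted p up to 0.0342.

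Cxcl10, which encodes the CXCR3 ligand IP-10, had 0.492, 0.589 and 0.753 CPM in shCdGAP, against 1.96, 1.02 and 1.58 CPM in shCTL. Its counts were 11, 13 and 19 in shCdGAP, against 38, 28 and 42 in shCTL, and the groups did not overlap. The log2 fold change was −1.29 ± 0.341 (adjusted p = 0.0398, edgeR), and with the replicate number as a block it did not pass (−1.27, adjusted p = 0.0705). The call was also lost without any 1 library other than shCdGAP replicate 1 (adjusted p 0.0522 to 0.135), with no filter on low counts (0.052) and in limma voom (0.0533).

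Ccl5, which encodes RANTES, had 1, 0 and 0 counts in shCdGAP and 10, 6 and 13 counts in shCTL. The groups did not overlap, as for 22.4% of tested genes with shCdGAP lower. The shCTL level was 27.5 times the shCdGAP level, with an exact 95% interval of 4.56 to 1123 for counting error. It did not reach the count minimum, and an exact permutation test on log2(CPM + 0.5) gave p = 0.1, the smallest that 3 against 3 libraries allow (two-sided). With no filter on low counts edgeR called it lower (log2 fold change −4.38, adjusted p = 0.0139), as it did 7.33% of genes tested that way. In filtered fits with 1 library left out where Ccl5 reached the count minimum, it was called when shCdGAP replicate 1 (−6.28, adjusted p = 0.00735), shCdGAP replicate 3 (0.0456) or shCTL replicate 2 (0.0269) was omitted. With shCdGAP replicate 2 omitted it was not (0.055). Cxcl16 had 3, 0 and 2 counts in shCdGAP and 1, 0 and 0 counts in shCTL, a ratio of 5.27 with an interval of 0.59 to 249, so no difference was detectable at this depth.

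**Figure D2:**
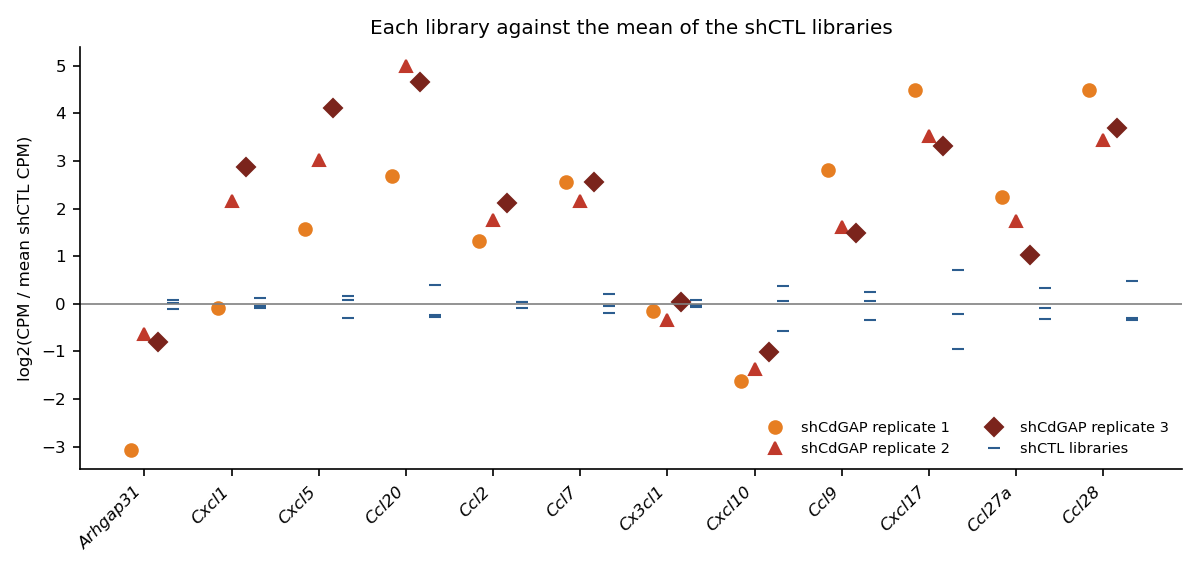
log2 of the CPM in each library over the mean shCTL CPM (vertical axis), for Arhgap31, 7 members and 4 other chemokine genes. Circles, triangles and diamonds are shCdGAP replicates 1, 2 and 3, and blue ticks at their right are the shCTL libraries. Replicate 1 is lowest of the shCdGAP libraries for Cxcl1, Cxcl5, Ccl20 and Ccl2 and highest for Ccl9, Cxcl17, Ccl27a and Ccl28.

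The shCdGAP libraries differed among themselves in a gene-specific way. Against the shCTL mean, Cxcl5 was 2.99-, 8.13- and 17.2-fold in shCdGAP replicates 1 to 3, and Ccl20 was 6.46-, 31.8- and 25-fold. Ccl2 was 2.48-, 3.41- and 4.36-fold and Ccl7 5.86-, 4.49- and 5.9-fold. Replicate 1 also had the lowest Arhgap31 level, at 0.119 of the shCTL mean, against 0.642 and 0.576 in replicates 2 and 3. Of the 8 chemokine ligand genes that rose, replicate 1 was the lowest shCdGAP library for 3, the middle one for 1 and the highest for 4. The part that this library's other differences play in these values was not tested.

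Compared per kilobase of exon, Cxcl5 and Ccl2 led both groups. In shCdGAP the mean levels in CPM per kilobase were 945 for Cxcl5, 220.5 for Ccl2, 89.9 for Cxcl1, 34.1 for Ccl20, 23.3 for Ccl7, 5.08 for Cx3cl1 and 0.402 for Cxcl10. Library ranges of Cxcl1 and Ccl20, and of Ccl20 and Ccl7, overlapped there. In shCTL Cxcl5 ranged from 81.8 to 112.7 over the libraries, followed by mean levels of Ccl2 at 64.6, Cxcl1 at 21.1, Cx3cl1 at 5.63, Ccl7 at 4.30, Ccl20 at 1.62 and Cxcl10 at 1.00 CPM per kilobase, and these neighbours did not overlap. Ccl20 and Ccl7 thus stood above Cx3cl1 in shCdGAP and below it in shCTL.

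Ratios of counts within a library do not depend on the scaling between libraries. There were 5.37 and 8.90 counts of Cxcl5 for each of Ccl2 in shCdGAP replicates 2 and 3 and 2.72 in replicate 1, against at most 2.50 in any shCTL library. Counts of Ccl20 for each of Ccl2 were 0.0815, 0.291 and 0.18 in shCdGAP, against 0.0254, 0.0398 and 0.0281 in shCTL. For Ccl2 over Ccl7 they were 9.03, 16.2 and 15.8 in shCdGAP, against 22.4, 25.1 and 17.6 in shCTL. In each of the 6 ratios computed the groups did not overlap. The pairs were picked among the members, and no share over other gene pairs was computed. The exact permutation p was 0.1 for each (0.1 after adjustment over the 6). This is the smallest this design allows, so none could pass the threshold.

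**Figure D3:**
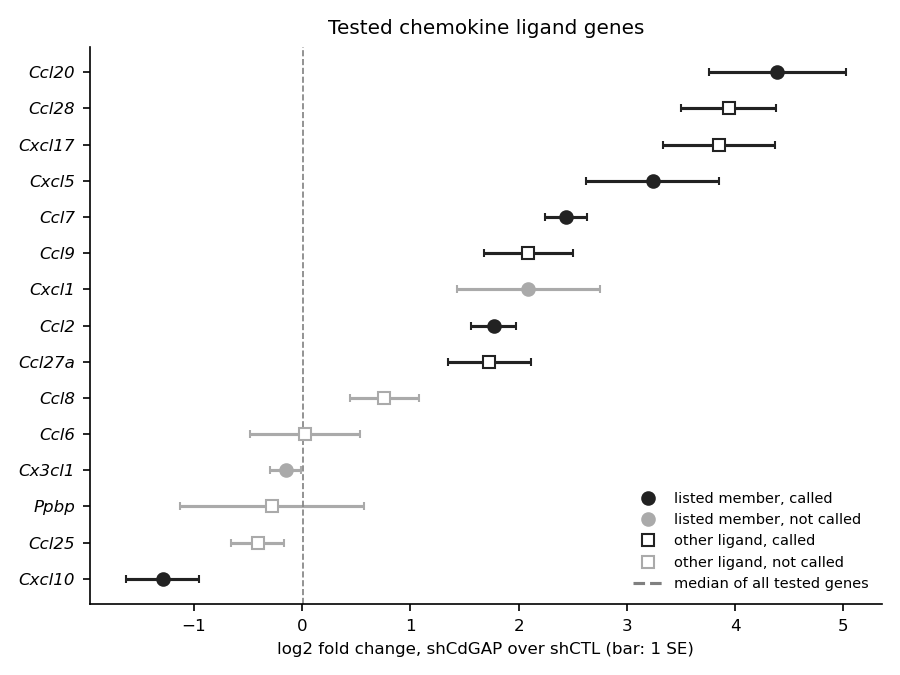
log2 fold changes, shCdGAP over shCTL (horizontal axis, bars 1 SE), of the 15 chemokine ligand genes with enough counts to be tested. Circles are the members, squares the other ligands, black those called and grey those not called, and the dashed line marks the median of all tested genes at 0.01. Ccl20, Ccl28, Cxcl17 and Cxcl5 lie furthest right, and Cxcl10 is the only called gene at left.

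Of 27 other chemokine ligand genes looked up, 8 were tested, and 7 had 0 counts in every library. Of the 8 tested, 4 rose and 0 fell, against 10.4% and 11.4% of all tested genes. Replicate 1 was the highest shCdGAP library for each of the 4 risen genes. Cxcl17, a mucosal chemokine gene, had 38.0, 19.5 and 16.8 CPM in shCdGAP, against 0.877, 1.46 and 2.75 CPM in shCTL (log2 fold change 3.85 ± 0.518, adjusted p = 0.00382, edgeR). Ccl28, whose product attracts plasma cells to mucosae and mammary gland, had 4.11, 2.00 and 2.38 CPM in shCdGAP, against 0.258, 0.146 and 0.15 CPM in shCTL (3.94 ± 0.439, adjusted p = 0.00186). Without both libraries numbered 1, the log2 fold change of Cxcl17 was 3.12.

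Ccl9, a CC chemokine gene of rodents, had 10.4 ± 5.67 CPM in shCdGAP and 2.43 ± 0.489 CPM in shCTL (SD, n = 3 each, adjusted p = 0.0152, edgeR). The Ccl9 call was lost without shCTL replicate 1, 2 or 3 (adjusted p 0.0562 to 0.0661), and its log2 fold change was 1.41 without both libraries numbered 1. Ccl27a, a skin-homing chemokine gene, had 2.61 ± 1.04 CPM in shCdGAP and 0.775 ± 0.184 CPM in shCTL (adjusted p = 0.0221). The Ccl27a call was lost with the replicate block (1.66, adjusted p = 0.0618), and without shCdGAP replicate 2 or any shCTL library (0.0622 to 0.0982). Ccl8, Ccl25, Ccl6 and Ppbp were tested and not called.

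**Figure D4:**
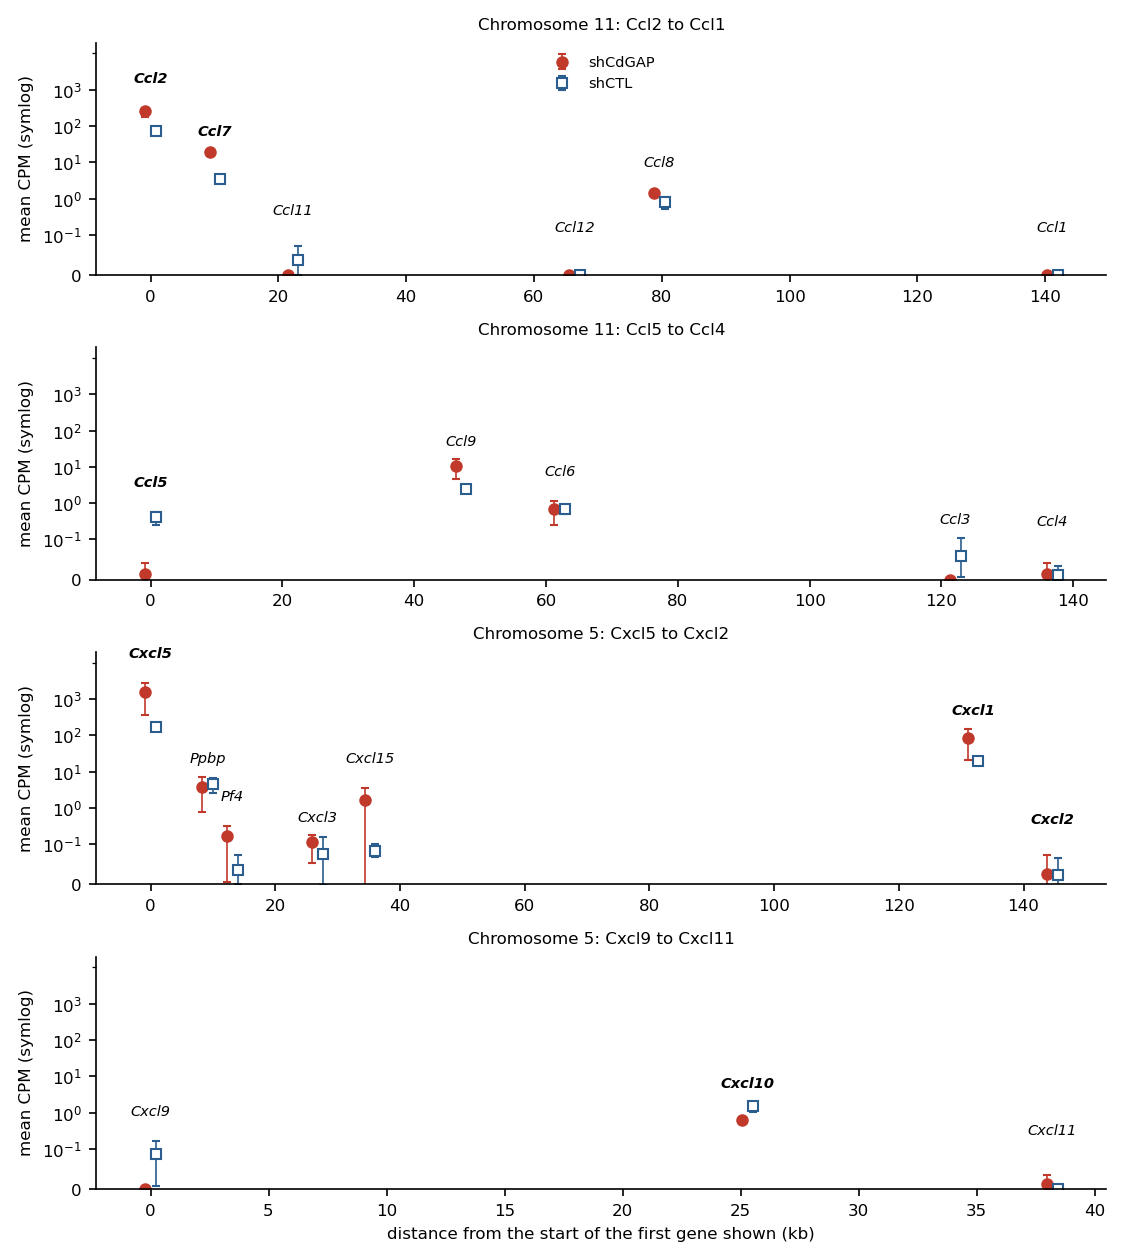
Mean CPM (vertical axes, linear below 0.1 and logarithmic above) with 1 SD, for chemokine genes of 4 groups on chromosomes 5 and 11, against the distance of each gene's start from that of the first gene shown (kb). Filled circles are shCdGAP and open squares shCTL, drawn slightly apart at each gene, and members are in bold. In the group from Cxcl5 to Cxcl2, mean shCdGAP levels run from 1564.1 CPM for Cxcl5 to 0.0264 CPM for Cxcl2, and in the group from Cxcl9 to Cxcl11 the highest level is 1.52 CPM, for Cxcl10 in shCTL.

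Near neighbours of Cxcl5, Cxcl1, Ccl2 and Ccl7 included genes at or close to 0. On chromosome 5 of GRCm38, Cxcl5 (90759299 to 90761625), Cxcl1 (90891241 to 90893115) and Cxcl2 (90903899 to 90905909) lie in a run of 7 chemokine genes. Cxcl1 and Cxcl2 start 12.7 kb apart, and in shCdGAP they had 85.6 and 0.0264 CPM. Ppbp, which starts 9.22 kb from Cxcl5 and was named after its values were seen, had 0.358, 5.03 and 6.22 CPM in shCdGAP, against 2.32, 5.89 and 5.83 CPM in shCTL (log2 fold change −0.28, adjusted p = 0.857, edgeR). Cxcl15 in the same run, also named afterwards, had 86, 14 and 10 counts in shCdGAP and 2, 2 and 2 in shCTL, and was below the count minimum. With no filter it was called higher (log2 fold change 4.17, adjusted p = 0.0234, edgeR). In the filtered fits where it reached the count minimum, Cxcl15 was not called without shCTL replicate 1, 2 or 3 (adjusted p 0.118 to 0.141) or shCdGAP replicate 2 (0.0529), and its log2 fold change was 2.58 without shCdGAP replicate 1 (0.00522). Cxcl10 lies on the same chromosome (92346638 to 92348889), 1587.3 kb from Cxcl5.

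On chromosome 11, Ccl2 (82035571 to 82037453) and Ccl7 (82045712 to 82047525) start 10.1 kb apart and both rose. Their neighbours Ccl11, Ccl12 and Ccl1 had 0 counts in all 3 shCdGAP libraries, and Ccl8 was not called (0.76 ± 0.322, adjusted p = 0.149, edgeR). Ccl5 (83525778 to 83530518) lies in another run of 5 genes, 1490.2 kb from Ccl2, where Ccl9 rose. The remaining members stand elsewhere, Ccl20 on chromosome 1 (83116766 to 83119167), Cx3cl1 on chromosome 8 (94772009 to 94782423) and Cxcl16 on chromosome 11 (70453983 to 70459984).

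Receptors for these chemokines were scarce or at 0. Of 18 chemokine receptor genes, 7 had 0 counts in every library and 1 was tested, with 0 called and 0 at an unadjusted p under 0.05 (edgeR, and 0 called in DESeq2). That 1 was Cxcr2, the receptor of CXCL1, CXCL2 and CXCL5, with 0.536, 3.31 and 3.09 CPM in shCdGAP, against 4.08, 3.82 and 3.61 CPM in shCTL (log2 fold change −0.73 ± 0.58, adjusted p = 0.429). Ccr2 and Ccr6, which encode the receptors of CCL2 and CCL20, had 0 counts in all 6 libraries. Ccr7 had 3, 1 and 0 counts in shCdGAP and 40, 19 and 8 in shCTL, below the count minimum, and was called lower with no filter (log2 fold change −3.99, adjusted p = 0.0291, edgeR). In filtered fits Ccr7 was not called without shCdGAP replicate 2 (adjusted p = 0.129) or 3 (0.103), and it was called without shCTL replicate 3 (0.0421) and without shCdGAP replicate 1 (−5.19, 0.0191). Of 5 atypical receptors, which bind chemokines without G protein signalling, 1 was tested. It was Ackr3, which fell, with 2 counts in shCdGAP and 270 in shCTL (ratio of shCTL over shCdGAP 128, exact 95% interval 35.1 to 1062.5, adjusted p = 0.000817).

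**Figure D5:**
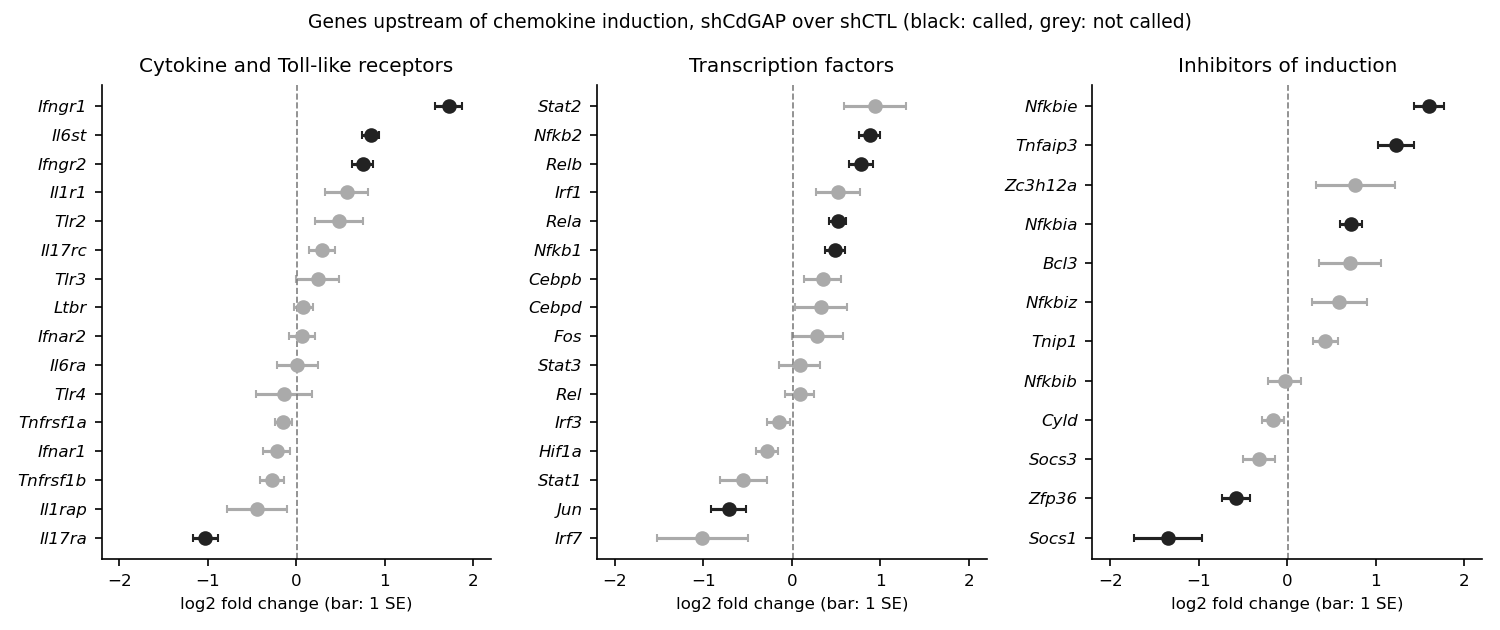
log2 fold changes, shCdGAP over shCTL (horizontal axes, bars 1 SE), of receptors, transcription factors and genes listed as inhibitors, upstream of chemokine genes. Black points were called and grey points were not, and dashed lines mark the median of all tested genes. Ifngr1 and Nfkbie lie furthest right among called genes, and Il17ra and Socs1 furthest left.

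Of 16 transcription factor genes known to act on chemokine promoters, 4 rose and 1 fell, with a median log2 fold change of 0.31, against 0.01 over all tested genes. The share called was 31.2%, against 21.7% of all tested genes. The 4 that rose, Nfkb2, Relb, Rela and Nfkb1, encode NF-kappaB subunits, and the other NF-kappaB subunit gene of the list, Rel, had 6.47 ± 0.463 CPM in shCdGAP and 6.10 ± 0.527 CPM in shCTL (SD, n = 3 each, log2 fold change 0.09, adjusted p = 0.761, edgeR). Nfkb2 had 137 ± 15.3 CPM in shCdGAP and 74.6 ± 4.70 CPM in shCTL (SD, n = 3 each, adjusted p = 0.00395, edgeR), and Relb had 26.9 ± 2.00 and 15.7 ± 1.28 CPM in shCdGAP and shCTL (adjusted p = 0.00852). Rela had 102 ± 3.94 CPM in shCdGAP and 71.0 ± 3.69 CPM in shCTL (adjusted p = 0.0113). Nfkb1 had 134 ± 11.5 CPM in shCdGAP and 95.0 ± 7.05 CPM in shCTL (adjusted p = 0.0245, and 0.0597 with the replicate block). Jun, an AP-1 gene, fell (15.7 ± 3.05 CPM in shCdGAP and 25.7 ± 4.30 CPM in shCTL, adjusted p = 0.0465). With 1 library left out, 1 to 6 of the 16 factors were called. The 6 came without shCdGAP replicate 1, where 5785 of 13831 tested genes were called. The 1 came without shCTL replicate 2, where 1394 of 13629 tested genes were called. Nfkb1 and Jun were each lost without any 1 library other than shCdGAP replicate 1, Jun also with upper-quartile scaling (0.0528), Rela without shCTL replicate 2 or shCdGAP replicate 2, and Relb without shCTL replicate 2 or 3.

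Of 12 genes listed as brakes on chemokine induction, 3 rose and 2 fell, with a median log2 fold change of 0.51. The share called was 41.7%, against 21.7% of all tested genes, for a list chosen with earlier results known. Those that rose act on NF-kappaB. The list also holds Nfkbiz (0.59) and Bcl3 (0.71), which were not called and whose products are not inhibitors only. Nfkbie had 17.2 ± 2.55 CPM in shCdGAP and 5.66 ± 0.179 CPM in shCTL (log2 fold change 1.60, adjusted p = 0.00151, edgeR). Tnfaip3, the gene of the ubiquitin-editing enzyme A20, had 48.9, 73.6 and 77.4 CPM in shCdGAP, against 31.4, 28.3 and 25.6 CPM in shCTL (1.23, adjusted p = 0.00745). Nfkbia rose by 0.72 (adjusted p = 0.00966), and not without shCTL replicate 2 (0.0522). Zfp36, whose product destabilises cytokine mRNAs, fell by 0.58 (adjusted p = 0.0432), and Socs1, an inhibitor of interferon signalling, fell by 1.35 (adjusted p = 0.0498). Omitting any single shCTL library ended the Zfp36 and Socs1 calls (adjusted p at most 0.164 and 0.175), as did omitting shCdGAP replicate 2. Zfp36 was also lost without shCdGAP replicate 3 (0.0936) and Socs1 with RLE scaling (0.0509).

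Of 16 receptor genes for inducing cytokines and Toll-like signals, 3 rose and 1 fell, with a median of 0.07. The share called, 25.0%, was near the 21.7% of all tested genes. The interferon gamma receptor genes Ifngr1 (189 ± 35.9 CPM in shCdGAP and 57.3 ± 1.49 CPM in shCTL, adjusted p = 0.000887, edgeR) and Ifngr2 (adjusted p = 0.00641) rose, as did Il6st, the shared chain of IL-6 family receptors (adjusted p = 0.00191). Il17ra, whose product induces neutrophil chemokines in epithelia, fell, with 26.2 ± 3.75 CPM in shCdGAP and 53.4 ± 3.86 CPM in shCTL (adjusted p = 0.0043). Of 12 cytokine genes 4 were tested and 2 fell, against 11.4% of all tested genes. They were Lif, an IL-6 family cytokine gene (log2 fold change −0.84, adjusted p = 0.024, edgeR), and Csf2, the GM-CSF gene (−1.69, adjusted p = 0.0411). Both calls were lost without any 1 shCTL library (adjusted p up to 0.0921 and 0.0996) and without shCdGAP replicate 3, and Csf2 also without shCdGAP replicate 2 (0.115). None of the 4 tested proteases that cut chemokines, Adam10, Adam17, Ctsc and Mmp14, was called (0 at an unadjusted p under 0.05, edgeR, and 0 called in DESeq2). Ctsc, which encodes cathepsin C, had 205 ± 43.8 CPM in shCdGAP and 166 ± 27.3 CPM in shCTL, and passed without both libraries numbered 1 (log2 fold change 0.27, adjusted p = 0.00611).

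Markers of other cells that make or receive chemokines were low. In bulk RNA, fewer cells of a type and less RNA per cell cannot be told apart. Of 22 leukocyte markers, 17 averaged under 1 CPM in both groups, and these 17 summed to 1.09 to 2.15 CPM in shCdGAP and 2.58 to 3.28 CPM in shCTL. The sum over all 22 was 115 to 204 CPM in shCdGAP and 197 to 219 CPM in shCTL, most of it Cd14, which averaged 149.6 CPM in shCdGAP and 150.3 CPM in shCTL. The pan-leukocyte gene Ptprc averaged 0.221 CPM in shCdGAP and 0.195 CPM in shCTL, and the T cell gene Cd3e had 1 count in shCdGAP and 5 in shCTL. Cd3d, Nkg7, Adgre1 and Tyrobp had 0 counts in all libraries. The share of tested leukocyte markers called was 25.0%, near the 21.7% of all tested genes. Among 8 tested leukocyte markers, Itgam rose (1.41 ± 0.236 CPM in shCdGAP and 0.213 ± 0.123 CPM in shCTL, adjusted p = 0.00788, edgeR) and S100a8 fell (3.26 ± 2.61 and 37.5 ± 10.9 CPM in shCdGAP and shCTL, adjusted p = 0.0098, log2 fold change −3.53, and −4.39 without shCdGAP replicate 1). The part of these markers in the chemokine values was not tested.

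Of 9 fibroblast markers 2 were tested and 0 called (edgeR, 1 at an unadjusted p under 0.05, and 0 in DESeq2), with the sum over the list at 3.45 to 7.06 CPM in shCdGAP and 5.39 to 6.29 CPM in shCTL. The 2 were Col1a1 (2.72 ± 0.80 CPM in shCdGAP and 1.60 ± 0.251 CPM in shCTL) and Pdgfra, which passed without shCdGAP replicate 1 (log2 fold change −1.26, adjusted p = 0.00809, edgeR), and Lum and Thy1 were at 0 throughout. Of 8 endothelial markers 2 were tested and both were called, against 21.7% of all tested genes. Egfl7 rose (7.56 ± 1.98 CPM in shCdGAP and 3.55 ± 0.282 CPM in shCTL), and Tek fell, with 0 counts in shCdGAP and 31 in shCTL, at least 9.8-fold lower (floor of 3 counts over the group). The Egfl7 call was lost without shCTL replicate 2 or 3 (adjusted p up to 0.0936, edgeR) and the Tek call with the replicate block (0.0547). The list summed to 6.34 to 10 CPM in shCdGAP and 4.63 to 5.37 CPM in shCTL, with Emcn and Cldn5 at 0. The 7 other than Egfl7 summed to at most 0.179 CPM in shCdGAP and to at least 1.28 CPM in shCTL, so the higher sum in shCdGAP was that of Egfl7. Cdh5, named after its values were seen, had 1 count in shCdGAP and 31 in shCTL. Of 10 epithelial markers 7 were tested and 57.1% of these were called, against 21.7% of all tested genes. The 3 below the count minimum, Krt14, Cldn4 and Cldn7, averaged under 1 CPM in both groups, with Cldn7 at 0 throughout. Cdh1, Ocln and Krt7 rose and Krt5 fell, with the Krt7 call lost without shCdGAP replicate 2 or any shCTL library (adjusted p up to 0.077, edgeR), and the list summed to 7235 to 11019 CPM in shCdGAP and 5916 to 8427 CPM in shCTL.

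For each tested member the gene of most similar pattern was sought among 9030 others with at least 10 CPM. Likeness was the root mean square difference in log2 CPM over the 6 libraries after centring each gene on its mean, so the points share the group difference and the libraries. The closest genes were Neurl3 for Cxcl1 (0.42), Atp9a for Cxcl5 (0.51), Arhgef26 for Ccl20 (0.52), Vsig1 for Ccl2 (0.16), Anxa13 for Ccl7 (0.15), Lgr4 for Cx3cl1 (0.05) and Shmt2 for Cxcl10 (0.20). Neurl3 had 36.0, 68.8 and 143.3 CPM in shCdGAP, against 27.7, 29.6 and 25.5 CPM in shCTL, and so also had replicate 1 lowest of the shCdGAP libraries. Anxa13 was at 449.7, 330.5 and 352.6 CPM in shCdGAP, against 62.8, 68.5 and 73.2 CPM in shCTL. The closest genes of Cxcl5 and Ccl20 differed from them by over 0.5 on this scale, more than those of the other members.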

How the data were processed

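RNA of 6 libraries, 3 shCdGAP and 3 shCTL, was analysed from the raw fragment counts per gene that the authors deposited, 1 file per library. Per the file headers, counts came from featureCounts 1.4.6 on TopHat alignments with Ensembl release 77 of GRCm38, for read pairs with both ends aligned, without chimeric pairs and with strand setting 2 (reverse-stranded). The headers name no option for reads with several hits. Among the tools in the submitters' processing notes are DESeq, Cuffdiff 2.2.1, TopHat2 2.0.14, Trimmomatic 0.30 and CASAVA 1.8. The deposited files also give each gene's exon length, the other column used. Symbols came from GENCODE M21, which matched 40254 of 41214 genes.

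The filter was filterByExpr with a count of at least 10 and a total of at least 15. Libraries were scaled by TMM and tested with the quasi-likelihood test of edgeR 4.0.16 (R 4.3.3), with Benjamini-Hochberg adjustment over all 13483 tested genes. SE was taken as the absolute log2 fold change over the square root of F. Alternatives were DESeq2 1.42.0, limma 3.58.1 (voom), other scalings and filters, the replicate number as a block, and libraries left out. Permutation tests used SciPy 1.17.1. The fits were tested on simulated data. The closest replicates, shCTL 2 and 3, had a chi-square of 3 per degree of freedom, above sampling noise, so each library counted once.

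Deviations from the group means correlated at 0.36, 0.29 and 0.25 between libraries numbered 1, 2 and 3. These values do not establish that the numbers pair the libraries. The main fit was therefore read as unpaired, and the replicate number entered only as a block in an alternative fit. The labels name no shared batch. Number 2 of shCdGAP also correlated at 0.25 with number 3 of shCTL, and number 3 of shCdGAP at 0.19 with number 2 of shCTL. The members and lists were chosen with earlier results of these data known. Named genes were the members and Arhgap31, every called gene of each other list (the most significant 3 in each direction had more than 6 been called), the 2 most abundant genes of a list with none called, the leukocyte genes Ptprc, Itgam and Cd3e, and the gene of closest pattern to each tested member. Other genes were named after their values were seen, among them Adam17, Mmp14, Rel, Cdh5, Ccr2, Ccr6, Ccr7, Cd14, Krt8, Krt18, Ppbp and Cxcl15. Protein sequences were not used here. Opposite-strand exon overlaps existed for Cxcl10, Cxcl16, Cxcl11 and Ccl27a.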

Additional observations from a re-analysis of the deposited data

How the results depend on the processing

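Fold changes of 42 named genes, those tested over all libraries, were recomputed under 14 alternatives. Of 570 values, 496 kept their side of the threshold, 65 lost a call and 9 gained one (Cxcl1 in 4, Arhgap31 and Pdgfra in 2 each, Ctsc in 1). No called value changed sign, and Adam10, not called in any, was at −0.01 without both libraries numbered 1, against 0.11 over all libraries. The genes of closest pattern were recomputed with another prior count only. The members called numbered 5 over all libraries and 3 to 7 with 1 library left out. The 7 came without shCdGAP replicate 1, where 5785 of 13831 tested genes were called. DESeq2 called 6, RLE or upper-quartile scaling 5, and limma voom or the replicate block 4. Of all 13483 tested genes the main fit called 2930 and DESeq2 3843. RLE scaling called 2965 of them, upper-quartile scaling 2883, limma voom 2983 and the replicate block 2745. The block changed the calls of Cxcl10, Ccl27a, Nfkb1 and Tek among named genes, and left 1 endothelial marker called.

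With at least 10 CPM required, 1691 of 9322 tested genes were called. Among them were 0 other CC ligands, 0 atypical receptors, 1 inducing cytokine, 1 leukocyte, 0 endothelial and 2 epithelial markers. This setting tests fewer genes. With no filter, 2952 of 22322 tested genes were called. They included 2 other CXC or XC ligands, 2 chemokine receptors, 1 protease, 3 brakes and 4 endothelial markers, and the cause was not tested. Without both libraries numbered 1, 7115 of 13625 tested genes were called. The list counts stand beside that share. They were 2 of 3 other CXC or XC ligands, 2 of 5 proteases, 9 of 16 inducing receptors and 10 of 16 transcription factors. Of the brakes 9 of 12 were called, with 6 of 9 leukocyte markers and 1 of 2 fibroblast markers. Arhgap31 passed at −0.76 in that fit. The cause was not tested.

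With 1 library left out, calls ranged from 1394 to 5785 genes, 1 to 2 other CXC or XC ligands, 1 to 4 other CC ligands, 0 to 2 chemokine receptors, 0 to 1 protease, 0 to 4 cytokines, 4 to 6 inducing receptors, 1 to 6 transcription factors, 2 to 9 brakes, 2 to 6 leukocyte, 0 to 2 endothelial, 0 to 1 fibroblast and 3 to 6 epithelial markers, and Arhgap31 from −1.51 to −0.71. The highest totals came without shCdGAP replicate 1, where 5785 of 13831 tested genes were called. The lowest total over all genes, 1394 of 13629 tested, came without shCTL replicate 2. The list counts did not all follow these totals and were given no set test. Inducing receptors called stayed at 4 in every such fit other than that without shCdGAP replicate 1. Members called numbered 4 without shCTL replicate 2, against 3 without shCTL replicate 1, where 1845 of 13786 tested genes were called. With prior count 0.5, 5 of 7 closest genes were the same, while that of Ccl2 became Csrp2 and that of Cxcl10 became Slc23a2.

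Cxcl2, Cxcl16 and Ccl5 were below the count minimum, so the main fit gave no fold change for them.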
